A study of Mus musculus with 17 samples.

Results

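The genes of the interleukin 1 (IL-1) family and of caspase 1 were followed in colon tumors and preneoplastic colon of mice given azoxymethane (AOM), a chemical that causes colon tumors in rodents. The members were taken by gene symbol: Il1a, Il1b, Il18, Il33 and Casp1, which are 5 of the 988 genes counted, and all 5 had counts in all 17 libraries. Mice called Kit-B6 are C57BL/6 with an intact Kit gene. Mice called Kit-W/sh are W-sash, a strain that carries a chromosomal inversion before Kit and lacks most mast cells as an adult. The inversion also affects Kit in other cells, so the strain is not a model of mast cell loss alone. The 6 Kit-B6 and 6 Kit-W/sh tumors came from animals aged 32 weeks, which had received AOM intraperitoneally 6 times over 6 weeks and were killed a further 18 weeks later. The 3 Kit-B6 and 2 Kit-W/sh preneoplastic colon samples came from animals aged 14 weeks, which had received AOM 3 times over 3 weeks and were killed a further 3 weeks later. Every group had AOM, and no untreated colon was analysed here. The stages also differ in age, AOM dosing and tissue, which cannot be told apart from stage. Whether each sample is a separate animal is not stated in the labels, and the deposited tables of Kit-B6 tumors 4 and 5 carry names with a shared stem.

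IL-1 alpha and IL-1 beta bind the same receptor and drive neutrophil recruitment through NF-kB. IL-1 beta and IL-18 are made as precursors without a signal sequence and are cut to their active form by caspase 1, a protease that is itself switched on in inflammasomes. IL-1 alpha and IL-33 are alarmins: both are active without caspase 1 and are released from damaged cells. IL-33 signals through the receptor ST2, which mast cells carry at a high level. In the healthy colon, IL-18 is made largely by the epithelium, whereas IL-1 beta comes mostly from myeloid cells. Transcript counts do not report precursor cutting, release or caspase activity.

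Library totals ran from 616009 to 1399902 counts, and 886 to 922 genes had a count in each library. Levels are given as CPM, which are counts set to a common library size after TMM scaling, a unit that can be compared between libraries for 1 gene but not between genes on an amplicon panel, because each primer pair amplifies with its own efficiency. A pair of tumor libraries stood apart. The library labelled Kit-W/sh tumor 2 held 460 CPM of Cpa3, the carboxypeptidase of mast cell granules, whereas the other Kit-W/sh tumors held 0 to 9.86 CPM and the Kit-B6 tumors 11.4 to 257 CPM. Its Cpa3 level goes against its Kit-W/sh label, and the group means of Kit-W/sh tumors include it. Without it the log2 differences between tumor genotypes were 2.18 ± 0.51 for Il1a, 2.11 ± 0.52 for Il1b and 1.29 ± 0.30 for Il33 (edgeR, adjusted p = 0.0517 for each), -0.51 ± 0.29 for Il18 and -0.46 ± 0.30 for Casp1 (edgeR, adjusted p = 0.372 and 0.44), and all 5 members still passed between Kit-W/sh stages. Kit-B6 tumor 4 lay nearest to the preneoplastic samples on the first principal component, which carried 61% of the variance, at 8.02 against 28.8 to 34.3 in preneoplastic colon. Epcam, the epithelial marker, was present in all groups, with group means from 26790 CPM in Kit-B6 preneoplastic colon to 28110 CPM in Kit-W/sh preneoplastic colon.

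Promoter windows of Il1a, Il1b, Il33 and Casp1 are shown. Il1a, Il1b and the downstream Il33 start share a feature near the start that the Il18 and Casp1 windows lack there. Whether it bears on the changes in tumors was not tested. Il1a and Il1b lie close together on the minus strand of chromosome 2, Il33 lies on the plus strand of chromosome 19, and Il18 and Casp1 lie on the plus strand of chromosome 9. RefSeq windows of 250 bases before a transcript start were read from build GRCm38.p6, at chr2:129309973-129310222 for Il1a, chr2:129371140-129371389 for Il1b, chr19:29945540-29945789 for the downstream of the 2 listed Il33 starts and chr9:5298267-5298516 for Casp1. Each is written 5′ to 3′ on the strand of its gene, and capitals mark the TATA box, the letters TATAAA.
Il1a: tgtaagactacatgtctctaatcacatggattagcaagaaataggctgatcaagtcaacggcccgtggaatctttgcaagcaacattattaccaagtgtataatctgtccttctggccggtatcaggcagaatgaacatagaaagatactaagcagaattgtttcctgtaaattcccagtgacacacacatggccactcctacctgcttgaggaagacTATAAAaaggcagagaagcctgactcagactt
Il1b: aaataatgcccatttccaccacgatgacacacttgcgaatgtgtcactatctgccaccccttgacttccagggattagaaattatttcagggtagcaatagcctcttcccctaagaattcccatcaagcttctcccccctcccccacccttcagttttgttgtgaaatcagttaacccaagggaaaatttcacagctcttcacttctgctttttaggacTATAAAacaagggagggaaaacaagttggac
Il33, downstream start: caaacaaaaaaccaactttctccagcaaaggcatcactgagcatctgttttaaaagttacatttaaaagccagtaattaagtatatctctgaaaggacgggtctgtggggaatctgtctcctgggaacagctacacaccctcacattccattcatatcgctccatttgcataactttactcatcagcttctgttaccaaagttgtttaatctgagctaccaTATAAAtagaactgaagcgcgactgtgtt
Casp1: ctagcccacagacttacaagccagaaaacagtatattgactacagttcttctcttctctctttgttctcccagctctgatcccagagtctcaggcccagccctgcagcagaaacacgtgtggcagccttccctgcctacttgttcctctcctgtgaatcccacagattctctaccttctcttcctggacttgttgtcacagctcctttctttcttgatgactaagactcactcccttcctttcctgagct

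A forward TATA box began 32 bases before the start in Il1a, 31 bases before it in Il1b and 29 bases before the downstream start of Il33. The same letters, searched forward within 25 to 35 bases of a start, occurred in 1.75% of all 32851 RefSeq windows and in 3.6% of the 945 windows of panel genes; this range was chosen after the members' positions were seen. The upstream start of Il33 had its only match 203 bases away, Il18 had one on the reverse strand 175 bases away, and the Casp1 window held none. The deposited counts do not tell which Il33 start the amplicon read. Of the other motifs, searched on both strands, the AP-1 letters TGANTCA lay 12 bases before the start of Il1a and in no other member, against 6.75% of all windows. The PU.1 letters GAGGAAG lay 41 bases before the start of Il1a, overlapping a match to the CEBP letters TTNNGNAA at 43 bases, and these letters occurred in 10.6% and 36.8% of all windows. CEBP matches also lay 91 bases before the start of Il1b and at 85 and 58 bases before the downstream start of Il33, and another lay 159 bases before its upstream start. The NF-kB letters GGNNTTTCC, found in 4.93% of all windows, and the cyclic AMP element TGACGTCA, found in 1.55%, were in none of the members' windows. A match is a stretch of letters, and none of these was tested for binding.

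Il1a and Il1b, the genes of the IL-1 receptor agonists, were both higher in tumors than in preneoplastic colon in each genotype. Il1a measured 12.7, 12.6 and 12.4 CPM in the 3 Kit-B6 preneoplastic samples and 8.92 and 6.88 CPM in the Kit-W/sh ones, which rest on only 5 to 8 counts a library. In Kit-B6 tumors its lowest, median and highest levels were 17.6, 120 and 173 CPM. In Kit-W/sh tumors they were 115, 420 and 838 CPM. Every tumor lay above every preneoplastic sample, Kit-B6 tumor 4 was the lowest tumor at 17.6 CPM, and the library labelled Kit-W/sh tumor 2 was the lowest of its group. The rise over preneoplastic colon was 3.12 ± 0.78 on the log2 scale in Kit-B6 (standard error, edgeR, adjusted p = 0.00526) and 5.80 ± 1.06 in Kit-W/sh (edgeR, adjusted p = 0.000799), or 8.71-fold and 55.7-fold.

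Il1b measured 29.0, 73.7 and 72.9 CPM in Kit-B6 preneoplastic colon and 121 and 86.7 CPM in Kit-W/sh preneoplastic colon. Its lowest, median and highest levels were 93.1, 606 and 1160 CPM in Kit-B6 tumors and 603, 2298 and 5040 CPM in Kit-W/sh tumors. Within each genotype the stages did not overlap, although Kit-B6 tumor 4, at 93.1 CPM, lay between the Kit-W/sh preneoplastic samples. Il1b rose by 3.36 ± 0.77 on the log2 scale in Kit-B6 (edgeR, adjusted p = 0.00287) and by 4.47 ± 0.96 in Kit-W/sh (edgeR, adjusted p = 0.00238), or 10.3-fold and 22.2-fold.

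Between genotypes, the mean Il1a level in tumors was 111 ± 63.5 CPM in Kit-B6 and 447 ± 285 CPM in Kit-W/sh (SD, n = 6 each), and the mean Il1b level was 610 ± 341 and 2331 ± 1615 CPM. Kit-W/sh tumors 3, 4, 5 and 6 lay above every Kit-B6 tumor for both genes, tumor 1 did so for Il1a alone, and the library labelled tumor 2 lay within the Kit-B6 range for both. The log2 difference was 1.99 ± 0.55 for Il1a and 1.91 ± 0.56 for Il1b, and neither passed the test across the panel (edgeR, adjusted p = 0.154 for each). DESeq2 called both, with adjusted p = 0.0152 for Il1a and 0.0208 for Il1b. A two-sided exact permutation test of the log2 levels gave p = 0.0152 for Il1a and 0.0195 for Il1b, unadjusted, where the smallest p that 6 against 6 allow is 0.00217. In preneoplastic colon Il1b differed by 0.80 ± 0.48 on the log2 scale (edgeR, adjusted p = 0.548), with no overlap between 2 Kit-W/sh and 3 Kit-B6 samples, and Il1a was too low for the test.

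**Figure D1:**
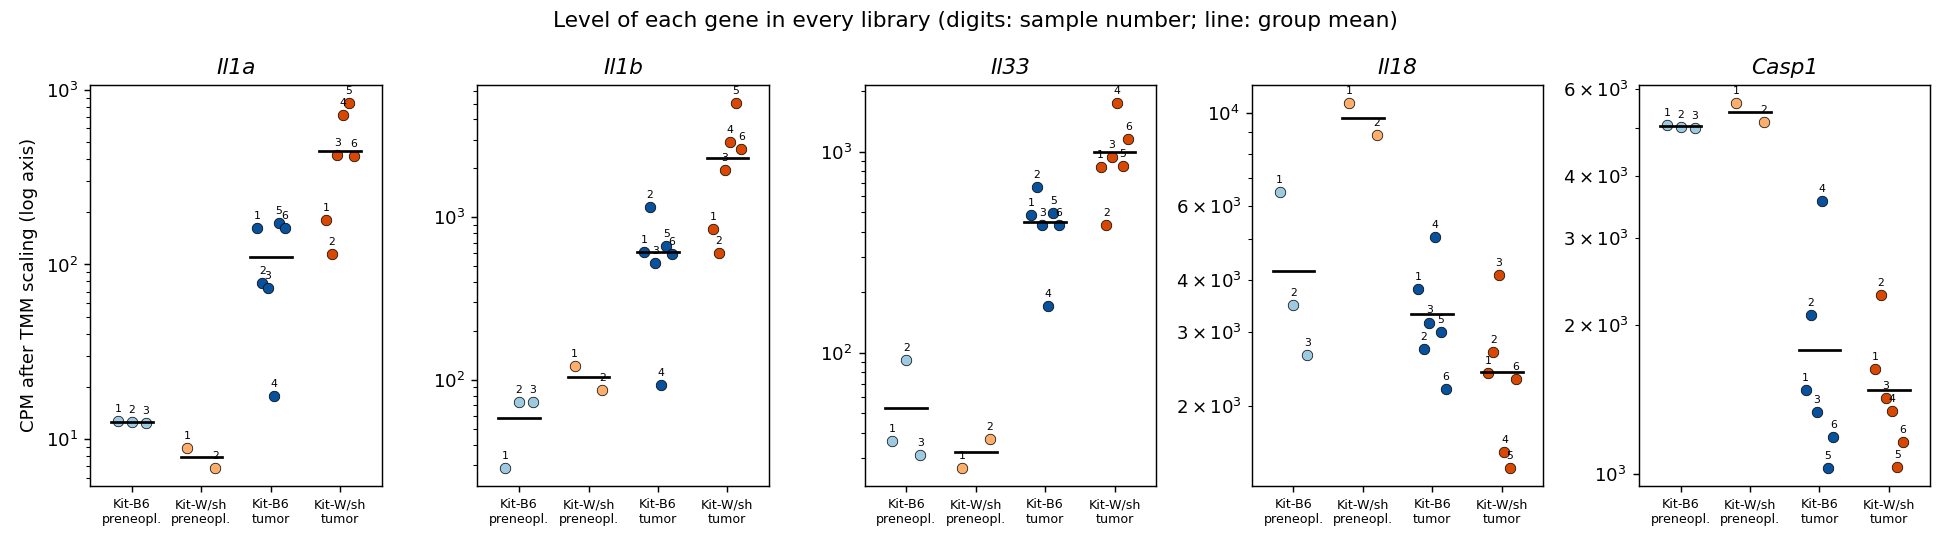
Level of each member in every library, in CPM after TMM scaling on a log axis, for the 4 groups, with the sample number at each point and a line at the group mean. Il1a, Il1b and Il33 are higher and Casp1 lower in tumors within each genotype, and Kit-B6 tumor 4 lies nearest to preneoplastic colon for Il1a, Il1b, Il33 and Casp1.

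Il33, the ligand of ST2, was also higher in tumors. It measured 36.2, 91.7 and 31.0 CPM in Kit-B6 preneoplastic colon and 26.8 and 37.2 CPM in preneoplastic colon of Kit-W/sh. In Kit-B6 tumors the lowest, median and highest levels were 170, 456 and 665 CPM, and in Kit-W/sh tumors 430, 895 and 1745 CPM. No tumor overlapped a preneoplastic sample, and tumor 4 was again the lowest of the Kit-B6 tumors and the library labelled tumor 2 the lowest of the Kit-W/sh tumors. Il33 rose by 3.06 ± 0.50 on the log2 scale in Kit-B6 (edgeR, adjusted p = 0.00026) and by 4.93 ± 0.68 in Kit-W/sh (edgeR, adjusted p = 0.000136), or 8.34-fold and 30.5-fold.

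The mean Il33 level was 446 ± 160 CPM in Kit-B6 tumors and 993 ± 437 CPM in Kit-W/sh tumors (SD, n = 6 each). In 5 of 6 Kit-W/sh tumors Il33 was above every Kit-B6 tumor, the exception being the library labelled tumor 2, which carried Cpa3. The log2 difference of 1.14 ± 0.33 did not pass in edgeR (adjusted p = 0.154) and passed in DESeq2 (adjusted p = 0.0455), and the two-sided exact permutation p was 0.0108, unadjusted. In preneoplastic colon the groups overlapped, with a log2 difference of -0.74 ± 0.60 (edgeR, adjusted p = 0.671). St2 itself, listed as Il1rl1, was not analysed here.

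Il18, the caspase 1 substrate that the colon epithelium expresses at rest, showed a fall in Kit-W/sh mice. Its levels were 6481, 3490 and 2649 CPM in Kit-B6 preneoplastic colon and 10574 and 8874 CPM in Kit-W/sh preneoplastic colon. Kit-B6 tumors had a lowest, median and highest level of 2191, 3085 and 5058 CPM, and Kit-W/sh tumors 1426, 2356 and 4102 CPM. The Kit-B6 stages overlapped, whereas all 6 Kit-W/sh tumors lay below both Kit-W/sh preneoplastic samples. Il18 fell by 2.02 ± 0.36 on the log2 scale in Kit-W/sh (edgeR, adjusted p = 0.000603), to 0.246 of its preneoplastic level. In Kit-B6 the difference was -0.36 ± 0.33 (edgeR, adjusted p = 0.393), and it was 0.13 ± 0.36 without Kit-B6 preneoplastic sample 1.

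At the early stage Il18 was higher in the Kit-W/sh samples, a difference that did not pass. Both Kit-W/sh preneoplastic samples lay above the 3 Kit-B6 ones, with means of 9724 ± 1202 CPM (SD, n = 2) and 4207 ± 2014 CPM (SD, n = 3). The log2 difference was 1.18 ± 0.39 (edgeR, adjusted p = 0.398), and 2 samples against 3 cannot give an exact permutation p under 0.1. It was 1.64 ± 0.21 and passed when Kit-B6 preneoplastic sample 1, the highest of its group, was left out (edgeR, adjusted p = 0.0162). In tumors the log2 difference was -0.47 ± 0.27 (edgeR, adjusted p = 0.45).

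Casp1, the protease gene, was lower in tumors of both genotypes. It measured 5082, 5032 and 5010 CPM in preneoplastic colon of Kit-B6 and 5617 and 5147 CPM in that of Kit-W/sh, the narrowest spread of the 5 members in Kit-B6 preneoplastic colon (0.726% of its mean). Kit-B6 tumors had a lowest, median and highest level of 1031, 1407 and 3556 CPM, and Kit-W/sh tumors 1033, 1384 and 2301 CPM. Every tumor lay below every preneoplastic sample, and the highest of each group were Kit-B6 tumor 4 and the library labelled Kit-W/sh tumor 2. Casp1 fell by 1.52 ± 0.32 on the log2 scale in Kit-B6 (edgeR, adjusted p = 0.00158) and by 1.87 ± 0.35 in Kit-W/sh (edgeR, adjusted p = 0.000811), to 0.349 and 0.273 of the preneoplastic level. Between genotypes it differed by -0.28 ± 0.30 in tumors (edgeR, adjusted p = 0.705) and by 0.07 ± 0.16 in preneoplastic colon (edgeR, adjusted p = 0.904), and without Kit-B6 tumor 4 the tumor difference was 0.01 ± 0.23.

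**Figure D2:**
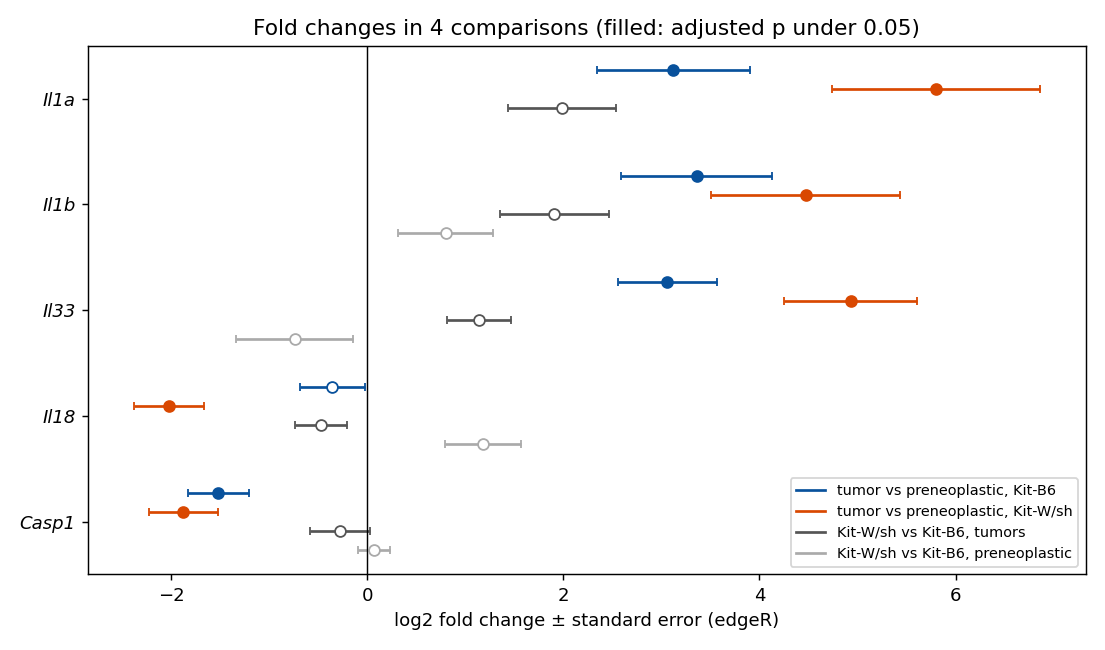
log2 fold changes of the members with their standard errors in the 4 comparisons, filled where the adjusted p was under 0.05. Stage changes of Il1a, Il1b and Il33 lie between 3.06 and 5.80, those of Casp1 at -1.52 and -1.87, and no genotype difference is filled; Il1a in preneoplastic colon is left out because it was not tested.

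Against the whole panel, the stage changes stood among many. In Kit-B6, 22.2% of the 869 genes tested were called higher and 18.9% lower in tumors, and 3 members were higher and 1 lower. In Kit-W/sh, 20.9% were called higher and 18.8% lower, and 3 members were higher and 2 lower. The groups did not overlap for 29.2% of the panel between Kit-B6 stages and for 58.6% between Kit-W/sh stages, against 4 and 5 of the 5 members. These percentages depend on the group sizes, so they are not compared between genotypes.

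Between genotypes in tumors, 0 of the 5 members and 0% of 799 genes passed in edgeR, whereas DESeq2 called Il1a, Il1b and Il33 among 3.35% of the panel. An unadjusted p under 0.05 was reached by 3 of the 5 members and by 13.6% of the panel. No member was free of overlap between the genotypes in tumors, a property of 0.626% of the panel, which was Ccl4, Chil1, Cxcr2, Gzmb and Lime1, named after their values were seen. Leaving out both Kit-B6 tumor 4 and the library labelled Kit-W/sh tumor 2, an alternative chosen after seeing the data, gave log2 differences of 1.96 ± 0.40 for Il1a, 1.88 ± 0.40 for Il1b and 1.12 ± 0.22 for Il33, each with adjusted p = 0.0352 in edgeR, among 15 genes called.

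In preneoplastic colon 0 of the 4 members tested passed, against 0.129% of 777 genes, which was Irf7 alone, named after its values were seen. DESeq2 called 0 members among its 20 genes. An unadjusted p under 0.05 was reached in edgeR by Il18 only among the members and by 10.7% of the panel. The groups did not overlap for 4 of the 5 members, against 30% of the panel, so a lack of overlap says little with 2 samples against 3.

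The change from stage to stage was tested for a difference between genotypes with the interaction term, in which 0 of the 5 members and 0% of the 869 genes passed. Il18 had an interaction of -1.67 ± 0.51 on the log2 scale, the fifth smallest p of the panel (edgeR, unadjusted p = 0.00459, adjusted p = 0.66). Il33 had 1.87 ± 0.72 (edgeR, unadjusted p = 0.019) and Il1a 2.68 ± 1.21 (edgeR, unadjusted p = 0.0419), with the same adjusted p. Il1b had 1.11 ± 1.02 and Casp1 -0.36 ± 0.50 (edgeR, adjusted p = 0.854 and 0.894). An unadjusted p under 0.05 was reached by 3 of the 5 members and by 7.25% of the panel, and DESeq2 called 0 members and 1 panel gene. The larger stage changes of Il1a, Il33 and Il18 in Kit-W/sh are therefore not shown to differ from those in Kit-B6 at the panel's threshold.

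Ratios of raw counts within a library carry no scaling. The log2 ratio of Il1b to Il18 counts was -7.81, -5.57 and -5.18 in Kit-B6 samples and -6.45 and -6.68 in Kit-W/sh samples of preneoplastic colon. Kit-B6 tumors ran from -2.62 to -1.24 apart from tumor 4, which had -5.76, and Kit-W/sh tumors ran from -2.16 to 1.82. Only Kit-B6 tumor 4 lay among the preneoplastic samples. Il33 to Casp1 ran from -7.71 to -5.78 over the 5 preneoplastic samples, was -4.39 in Kit-B6 tumor 4, ran from -1.66 to -1.05 in the other Kit-B6 tumors and from -2.42 to 0.379 in Kit-W/sh tumors. For that ratio no tumor overlapped preneoplastic colon.

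**Figure D3:**
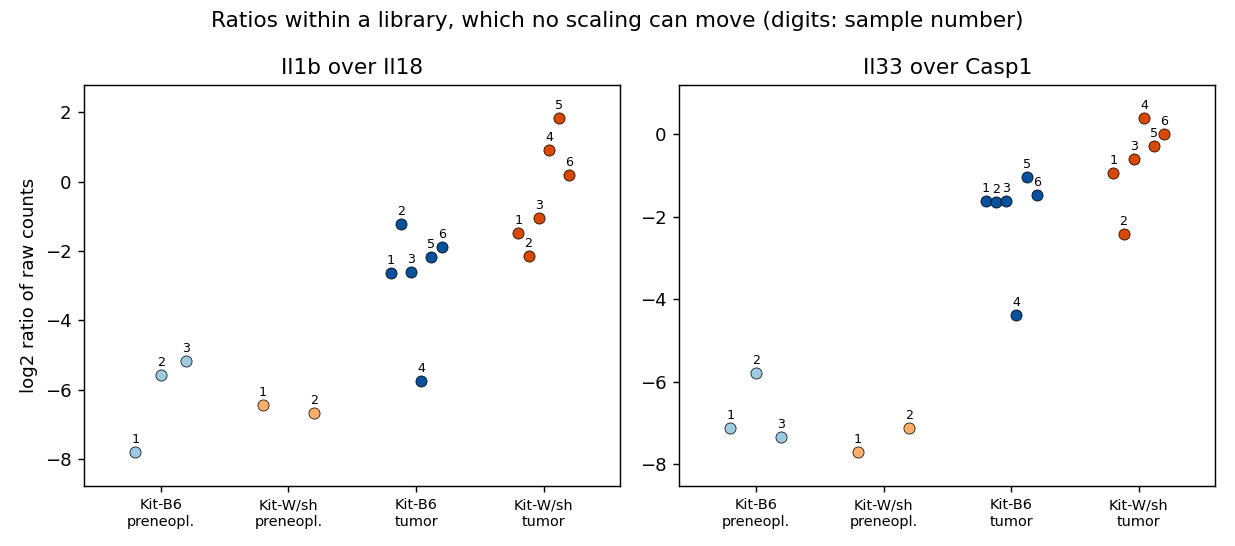
log2 ratios of raw counts within each library, Il1b over Il18 and Il33 over Casp1, for the 4 groups with the sample number at each point. Tumors lie above preneoplastic colon except Kit-B6 tumor 4, at -5.76, in the ratio of Il1b to Il18.

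Of 8 receptor genes listed, 4 were measured. Il1r2, the decoy receptor that binds IL-1 without signalling, rose by 1.94 ± 0.50 on the log2 scale in Kit-B6 tumors (edgeR, adjusted p = 0.00656) and by 3.53 ± 0.67 in Kit-W/sh tumors (edgeR, adjusted p = 0.000919). Sigirr, a receptor that dampens IL-1 signalling, fell by 2.00 ± 0.35 and 1.84 ± 0.38 (edgeR, adjusted p = 0.000439 and 0.00192). The signalling receptor Il1r1 rose by 0.85 ± 0.27 in Kit-B6 (edgeR, adjusted p = 0.0208) and had 0.68 ± 0.31 in Kit-W/sh (edgeR, adjusted p = 0.0957). Its partner chain Il1rap had 0.19 ± 0.24 and 0.31 ± 0.28 and passed in neither genotype. The other ligands and decoys listed, among them Il1rn and Il18bp, were not analysed here.

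Of 22 inflammasome and pyroptosis genes listed, 5 were measured. In Kit-B6 tumors 0 were called higher and 1 lower, beside 22.2% and 18.9% of all genes tested, and in Kit-W/sh tumors 0 higher and 2 lower, beside 20.9% and 18.8%, so with 5 genes the absence of a higher call is near the background. Naip1, a sensor of bacterial proteins, fell by 1.38 ± 0.41 in Kit-B6 and 1.75 ± 0.46 in Kit-W/sh on the log2 scale (edgeR, adjusted p = 0.0146 and 0.00733). Pycard, the adaptor ASC that links sensors to caspase 1, fell by 1.53 ± 0.37 in Kit-W/sh (edgeR, adjusted p = 0.0052) and had -0.75 ± 0.34 in Kit-B6 (edgeR, adjusted p = 0.0855). Aim2, a sensor of cytosolic DNA, Mefv, which encodes pyrin, and Card9, an adaptor of fungal sensing, passed in neither genotype. The median log2 change of the list was -0.16 in Kit-B6 and -0.27 in Kit-W/sh, beside -0.003 and 0.08 over all genes tested. Nlrp3 was not analysed here.

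Of 26 genes of MyD88 and NF-kB signalling, 8 were measured. In Kit-B6 tumors 2 were called higher and 1 lower, beside 22.2% and 18.9% of all genes tested. In Kit-W/sh tumors 1 was called higher and 1 lower, beside 20.9% and 18.8%. With 8 genes these counts are near the background. Rela, a DNA-binding subunit, rose by 0.64 ± 0.18 in Kit-B6 and 0.60 ± 0.21 in Kit-W/sh on the log2 scale (edgeR, adjusted p = 0.00998 and 0.032). Nfkb1 rose in Kit-B6, by 0.76 ± 0.22 (edgeR, adjusted p = 0.0115). Chuk, which encodes the kinase IKK alpha, fell by 0.60 ± 0.17 and 0.67 ± 0.19 (edgeR, adjusted p = 0.00953 and 0.0113). The other 5 passed in neither genotype in edgeR. Among them Myd88, the adaptor of IL-1 receptors, had a log2 difference of -0.36 ± 0.15 between Kit-B6 stages (edgeR, adjusted p = 0.0651, DESeq2, adjusted p = 0.0429). Nfkbib, an inhibitor of NF-kB, had -0.34 ± 0.14 there (edgeR, adjusted p = 0.0575, DESeq2, adjusted p = 0.04997). Between genotypes 0 of the 8 passed in edgeR at either stage. An unadjusted p under 0.05 was reached by 1 of the 8 at each stage, beside 13.6% of the panel in tumors and 10.7% in preneoplastic colon. That gene was Nfkbia. Its log2 difference was 0.71 ± 0.24 in tumors (edgeR, adjusted p = 0.2285, DESeq2, adjusted p = 0.128). In preneoplastic colon it was 0.79 ± 0.17 (edgeR, adjusted p = 0.2535, DESeq2, adjusted p = 0.02145).

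Of 19 genes that IL-1 is known to induce, 11 were measured, and 7 in Kit-B6 and 11 in Kit-W/sh rose in tumors, with 0 lower, beside 22.2% and 20.9% of all genes tested called higher and 18.9% and 18.8% lower. Many other signals induce these genes too. The neutrophil-attracting chemokine Cxcl5 rose by 6.45 ± 0.74 on the log2 scale in Kit-B6 and by 4.66 ± 0.80 in Kit-W/sh (edgeR, adjusted p = 1.51e-05 and 0.000544). Cxcl1, of the same family, rose by 3.36 ± 0.89 and 2.88 ± 0.99 (edgeR, adjusted p = 0.00767 and 0.0304). Icam1, the adhesion molecule that neutrophils grip on endothelium, rose by 2.40 ± 0.41 and 2.67 ± 0.49 (edgeR, adjusted p = 0.000313 and 0.000772). Csf2, which encodes the growth factor GM-CSF, averaged 14.7 CPM in Kit-B6 and 59.9 CPM in Kit-W/sh tumors and passed in Kit-W/sh (edgeR, adjusted p = 0.0101) but not in Kit-B6 (edgeR, adjusted p = 0.0985). Sele, the endothelial selectin, had 0 counts in both Kit-W/sh preneoplastic libraries and was at least 3.65-fold higher in Kit-W/sh tumors, against a floor of 3 counts per library. The median log2 change was 2.40 in Kit-B6 and 4.57 in Kit-W/sh, or 2.88 with Sele at that bound, beside -0.003 and 0.08 over all genes tested. In the interaction 0 of the 11 passed in edgeR, and 8 had positive values. An unadjusted p under 0.05 was reached there by 1 of the 11 and by 7.25% of the panel. The stage changes of these genes are therefore not shown to differ between genotypes. Between genotypes in tumors, 9 of the 10 tested had positive log2 differences, with a median of 1.59 beside -0.01 over all genes tested. None of the 10 passed in edgeR, as in the panel, where 0% passed. An unadjusted p under 0.05 was reached by 7 of them and 13.6% of the panel, and DESeq2 called 3 of them and 3.35% of the panel. The smallest p-values there were those of Nos2, Cxcl2 and Cxcl1, with log2 differences of 1.56 ± 0.40, 2.38 ± 0.61 and 2.03 ± 0.63 (edgeR, adjusted p = 0.154, 0.154 and 0.198). In preneoplastic colon 6 of the 7 tested also had positive log2 differences, with a median of 1.14 beside -0.008 over all genes tested. There 0 passed in edgeR, beside 0.129% of the panel, and 4 had an unadjusted p under 0.05, beside 10.7%. DESeq2 called 2 among its 20 genes, Cxcl1 and Cxcl5 (DESeq2, adjusted p = 0.00354 and 0.000715). Their edgeR log2 differences were 2.49 ± 0.56 and 2.63 ± 0.55.

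**Figure D4:**
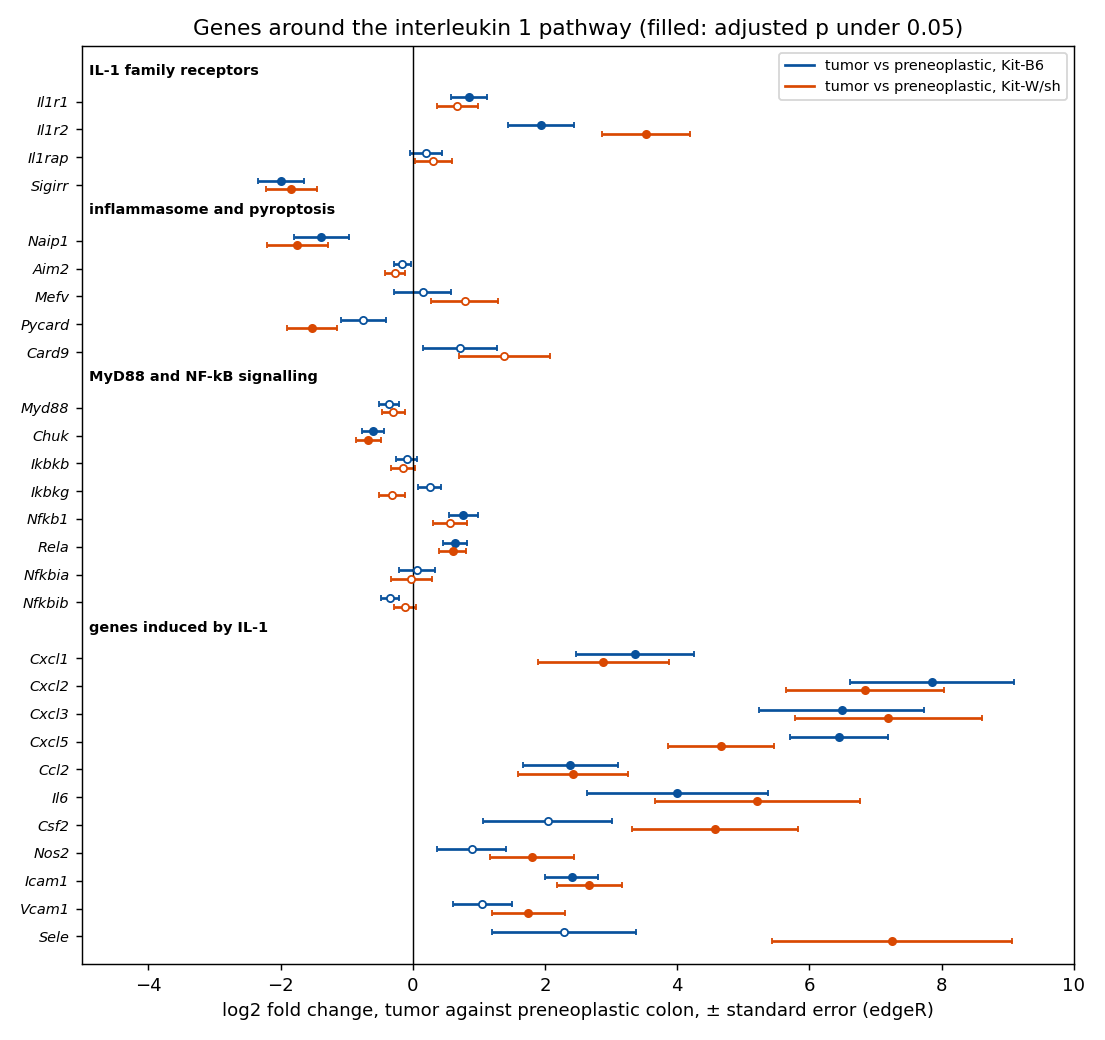
log2 fold change with standard error between tumors and preneoplastic colon in each genotype for the measured receptor, inflammasome, signalling and IL-1-induced genes, filled where the adjusted p was under 0.05. IL-1-induced genes lie to the right and Sigirr, Naip1 and Chuk to the left in both genotypes; fitted values of Sele in Kit-W/sh rest on 0 counts in preneoplastic colon.

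Of 12 genes induced by IL-18 or IL-33 in lymphocytes, 8 were measured and 6 had enough counts for the stage comparisons. Il13, a type 2 cytokine, had 0 counts in all 6 Kit-B6 tumors and was at least 2.86-fold lower than in preneoplastic colon, and its mean in Kit-W/sh was 0.695 CPM in tumors and 12.9 CPM in preneoplastic colon (edgeR, adjusted p = 0.000826 and 0.0052). Gata3, the type 2 transcription factor, rose by 1.64 ± 0.51 on the log2 scale in Kit-B6 (edgeR, adjusted p = 0.0173) and had 1.52 ± 0.59 in Kit-W/sh (edgeR, adjusted p = 0.0508). Ifng, the main product of IL-18-stimulated lymphocytes, had too few counts for the test. Gzmb, the granzyme of cytotoxic cells, had the smallest p of the list between genotypes in tumors. It measured 23.1 ± 7.74 CPM in Kit-B6 and 49.1 ± 7.28 CPM in Kit-W/sh (SD, n = 6 each). The difference did not pass in edgeR (adjusted p = 0.154) and passed in DESeq2 (adjusted p = 0.00629).

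Within tumors, Il1b varied with Il1a and against Casp1 in Kit-W/sh and with Il33 in Kit-B6; whether these relations differ between genotypes was not tested. In all, 20 relations were computed, 10 in each genotype over 6 tumors, on log2 levels. In Kit-W/sh tumors Il1a and Il1b had Pearson r = 0.978 (exact permutation p = 0.00278, adjusted p = 0.0185) and Spearman rho = 0.943 (exact permutation p = 0.0167, adjusted p = 0.111). Without the 2 tumors farthest from the median, tumors 1 and 2, r was 0.849. Il1b and Casp1 had r = -0.944 (exact permutation p = 0.00278, adjusted p = 0.0185) and rho = -0.943 (exact permutation p = 0.0167, adjusted p = 0.111), and r = -0.867 without the same tumors. Il1b and Il33 had r = 0.659 there (exact permutation p = 0.144, adjusted p = 0.206; rho = 0.657, exact permutation p = 0.175, adjusted p = 0.372), and -0.238 without tumors 1 and 2, so that relation rests on those tumors.

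In Kit-B6 tumors Il1b and Il33 had r = 0.997 (exact permutation p = 0.00278, adjusted p = 0.0185) and rho = 0.943 (exact permutation p = 0.0167, adjusted p = 0.111), and r = 0.831 without tumors 2 and 4. Il1a and Il1b had r = 0.802 there (exact permutation p = 0.103, adjusted p = 0.206; rho = 0.6, exact permutation p = 0.242, adjusted p = 0.372), and -0.355 without tumors 4 and 5, so that relation rests on those tumors. Il1b and Casp1 had r = -0.674 (exact permutation p = 0.167, adjusted p = 0.222; rho = -0.257, exact permutation p = 0.658, adjusted p = 0.693), and -0.521 without tumors 2 and 4. Il1a and Casp1 had r = -0.911 in Kit-B6 (exact permutation p = 0.0264, adjusted p = 0.106) and -0.898 in Kit-W/sh (exact permutation p = 0.0111, adjusted p = 0.05555). Their rho was -0.829 in both (exact permutation p = 0.0583, adjusted p = 0.194). Without the 2 tumors farthest from the median of each group, r was -0.502 and -0.475. Of the 20 relations, only the 3 with r of 0.997, 0.978 and -0.944 passed after adjustment, all by Pearson's r and none by rho.

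**Figure D5:**
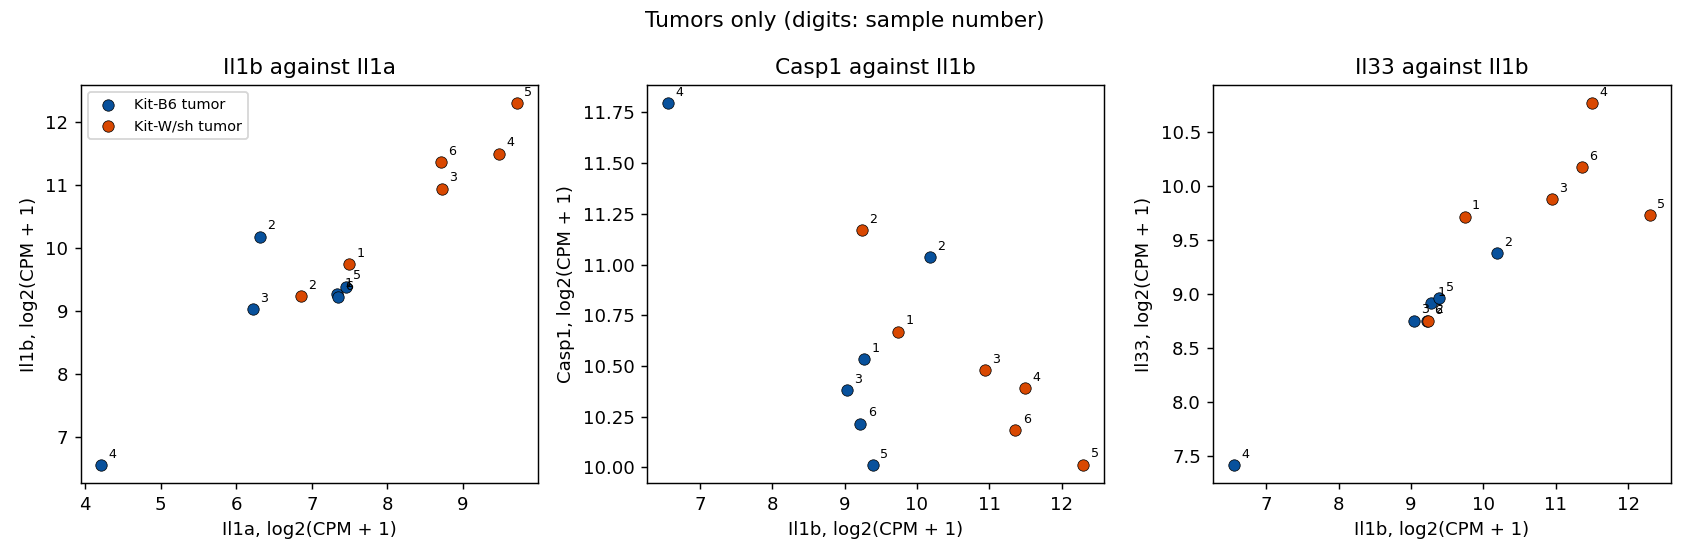
log2(CPM + 1) of Il1b against Il1a, of Casp1 against Il1b and of Il33 against Il1b in the 12 tumors, coloured by genotype, with the sample number at each point. Kit-B6 tumor 4 is the lowest of all tumors for Il1a, Il1b and Il33 and the highest for Casp1; Casp1 is lower where Il1b is higher among the Kit-W/sh tumors (r = -0.944).

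After subtraction of each group's mean, the genes most like each member over the 12 tumors were sought among 868 panel genes, as a description only, since all points share their libraries and scaling. Csf2 and Cxcl1 were the nearest to both Il1a (r = 0.957 and 0.936) and Il1b (r = 0.936 and 0.939), followed by the neutrophil receptor gene Fpr1 for Il1a (r = 0.911) and the chemokine Cxcl2 for Il1b (r = 0.907). Il33 was nearest to the sodium pump subunit Atp1b3 (r = 0.914), Cxcl1 (r = 0.883) and Cxcl3 (r = 0.85). Il18 was nearest to Pycard (r = 0.877), the chitinase gene Chit1 (r = 0.836) and the complement regulator Cd46 (r = 0.801). Casp1 was nearest to Tnfrsf11a, which encodes RANK (r = 0.961), Mical2 (r = 0.947) and the phosphatase gene Acp5 (r = 0.937). Without Kit-B6 tumor 4 these values ran from 0.711 for Cxcl3 with Il33 to 0.925 for Csf2 with Il1a, and without the library labelled Kit-W/sh tumor 2 from 0.794 for Cd46 with Il18 to 0.969 for Tnfrsf11a with Casp1.

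Markers of some other cell types also differed between the stages. Within each genotype, the sums of neutrophil and of monocyte and macrophage markers did not overlap between stages. Those of fibroblast, endothelial and B cell markers overlapped in Kit-B6 only, and those of T cell and mast cell markers in both genotypes. Of 10 T cell markers tested, 1 was called higher and 3 lower in Kit-B6, and 1 higher and 0 lower in Kit-W/sh. Of 8 mast cell markers tested, Hdc alone was called, higher in both genotypes. The summed level of 5 neutrophil markers was 14.0 to 27.2 CPM in Kit-B6 and 17.8 to 20.6 CPM in Kit-W/sh preneoplastic colon, with Mpo at 0, and 76.6 to 391 CPM in Kit-B6 and 386 to 944 CPM in Kit-W/sh tumors. Kit-B6 tumor 4 had the lowest sum of all tumors, and the library labelled Kit-W/sh tumor 2 the lowest of its group. Cxcr2, the neutrophil chemokine receptor, was at 30.0 to 107 CPM in Kit-B6 and 121 to 404 CPM in Kit-W/sh tumors, without overlap. That difference did not pass in edgeR (adjusted p = 0.154) and passed in DESeq2 (adjusted p = 0.00629). The 10 monocyte and macrophage markers summed to 1274 to 1393 CPM in Kit-B6 and 1317 to 1598 CPM in Kit-W/sh preneoplastic colon, and to 1553 to 4139 CPM in Kit-B6 and 2796 to 4425 CPM in Kit-W/sh tumors, with Marco at 0 in every library. Of the 9 tested, 4 in Kit-B6 and 7 in Kit-W/sh were called higher, beside 22.2% and 20.9% of all genes tested. Cd163 fell in both, by 2.45 ± 0.94 and 3.22 ± 1.11 on the log2 scale (edgeR, adjusted p = 0.04575 and 0.0309). Adgre1 passed in neither (edgeR, adjusted p = 0.313 and 0.251). Cd14 had the highest mean of the 10 markers in every group, so their sum leans on that gene. Between genotypes in tumors 0 of the 8 tested passed in edgeR, and 4 had positive log2 differences, with a median of 0.03. The 5 fibroblast and matrix markers summed to 2586 to 4927 CPM in Kit-B6 and 2473 to 5041 CPM in Kit-W/sh preneoplastic colon, and to 4729 to 19930 CPM in Kit-B6 tumors and 7956 to 14670 CPM in Kit-W/sh tumors, the lowest again being Kit-B6 tumor 4. Of these 5, Fn1, Col3a1 and Pdgfrb rose in both genotypes, with Fn1, the fibronectin gene, up by 2.67 ± 0.51 and 2.46 ± 0.60 on the log2 scale (edgeR, adjusted p = 0.000821 and 0.00494). Fap fell in both and Zeb1 in Kit-W/sh. The 2 endothelial markers summed to 84.5 to 121 CPM over all preneoplastic samples and to 115 to 329 CPM over all tumors. Of the 2, Selp rose by 2.78 ± 0.62 in Kit-B6 and 3.23 ± 0.72 in Kit-W/sh on the log2 scale (edgeR, adjusted p = 0.00256 and 0.00296). Kdr had 0.38 ± 0.31 and 0.16 ± 0.36 and passed in neither (edgeR, adjusted p = 0.332 and 0.739). The 8 B cell markers summed to 150 to 2888 CPM over all preneoplastic samples and to 18.2 to 122 CPM in tumors apart from Kit-B6 tumor 2, which had 804 CPM. All 7 tested had negative log2 changes, with a median of -2.99 in Kit-B6 and -2.55 in Kit-W/sh. In edgeR 4 passed in Kit-B6 and 0 in Kit-W/sh, beside 18.9% and 18.8% of all genes tested called lower. An unadjusted p under 0.05 was reached by 6 and 1, and DESeq2 called 0 in Kit-W/sh. In the interaction 0 of the 7 passed, so these falls are not shown to differ between genotypes. The part of these cells in the changes of the members was not tested, and the number of cells of a type and the RNA per cell cannot be told apart in bulk tissue.

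Casp1 was called lower in tumors of both genotypes, and Il18 in those of Kit-W/sh alone. Beside these falls, the 2 epithelial markers summed to 62150 to 100800 CPM in Kit-B6 and 79080 to 79260 CPM in Kit-W/sh preneoplastic colon. In tumors they summed to 39900 to 67940 CPM in Kit-B6 and 40890 to 49050 CPM in Kit-W/sh. Kit-B6 tumor 4 again held the highest sum of the tumors. Epcam had log2 changes of 0.02 ± 0.16 in Kit-B6 and -0.08 ± 0.18 in Kit-W/sh (edgeR, adjusted p = 0.911 and 0.752). Ceacam1 fell by 1.48 ± 0.24 and 1.52 ± 0.27 (edgeR, adjusted p = 0.000197 and 0.000603). Whether its amplicon also captures reads of its close relatives was not tested. The part of epithelial content in the falls of Casp1 and Il18 was not tested.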

How the data were processed

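Colon RNA was read on a MiSeq after multiplex PCR with a QIAseq immuno-oncology panel, per the labels' protocols. The authors deposited whole-number counts per gene, 1 table per sample; whether reads or molecular tags were counted is not given in the sources used here. The submitters' processing notes name mm9 and DESeq2 without a role. Groups and sample numbers came from the titles, and 5 genomic DNA control entries with 0 counts were left out. Counts were tested in R 4.3.3 with edgeR 4.0.16 (TMM scaling, minimum count 10 and total 15, robust quasi-likelihood F test, two-sided, Benjamini-Hochberg adjustment over all genes tested, threshold 0.05), tested on simulated data first. Standard errors were derived from the F statistic. Genotype comparisons used the libraries of their own stage; stage comparisons and the interaction used all 17 libraries in 4 groups, and these comparisons share samples. Alternatives were DESeq2 1.42.0, other scalings, filters, pseudocounts of 0.5 and 5 in place of 1, other samples in the fit, a sample number block and leaving out each library. Floors are 3 counts per library and cover counting error only. The p-values cover only the spread among these samples, which may be technical. Promoter sequences are from RefSeq (GRCm38.p6), in which all 5 members matched by symbol.

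The members, gene lists and tests were chosen with earlier results of these data known. Named genes were the members, their receptors and partners, up to 6 called genes per list and comparison by smallest p or else up to 3, the 3 genes most like each member, and defining cell markers; the text gives part of that set.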

Additional observations from a re-analysis of the deposited data

How the results depend on the processing

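The stage calls of the members, 4 in Kit-B6 and 5 in Kit-W/sh, held under every alternative run, and 491 recomputed fold changes of members kept their direction and side of the threshold, while 7 newly passed and 3 turned. In tumors between genotypes, DESeq2 called 3 members among 27 genes, and leaving out both Kit-B6 tumor 4 and the library labelled Kit-W/sh tumor 2 called 3 members among 15 genes; leaving out 1 library at a time called none, with a lowest adjusted p of 0.0517 in edgeR. The turned differences never passed. Casp1 between genotypes in tumors ran from -0.46 to 0.010 when 1 library was left out, Casp1 between genotypes in preneoplastic colon from -0.028 to 0.12, and Il18 between Kit-B6 stages from -0.60 to 0.13. In preneoplastic colon 1 panel gene passed; 0 passed with unscaled totals, with all 17 libraries fitted and with the replicate block, DESeq2 called 20, and leaving out 1 library gave 0 to 16 genes and 0 to 1 members, the highest without Kit-B6 preneoplastic sample 1. Between Kit-W/sh stages 345 genes passed, 180 with reference gene scaling and 132 to 367 when 1 library was left out, the low values of 132 and 159 without Kit-W/sh preneoplastic samples 1 and 2. For the interaction DESeq2 called 1 gene and leaving out 1 library gave 0 to 2, the highest without Kit-B6 preneoplastic sample 1. Whether sample numbers pair the samples was not settled. Between the tumors of the genotypes, same-number correlations ran from -0.195 to 0.39, and 3 of 6 tumors correlated best with their own number. The main fits did not include sample number. The replicate block gave 0, 0, 4, 5 and 0 members called in tumors, preneoplastic colon, Kit-B6 stages, Kit-W/sh stages and the interaction. Calls between stages were 54.1% higher in Kit-B6 and 52.8% in Kit-W/sh, 73% and 70.1% with unscaled totals, and 66.1% and 61.1% with reference gene scaling. Unscaled totals moved the panel's median log2 change to 0.24 and 0.34 and reference genes to 0.18 and 0.23, and relative to it Casp1 was -1.53 and -1.96 with unscaled totals and -1.59 and -1.90 with reference genes. The causes of these shifts were not tested. Il1a in preneoplastic colon, at 5 to 8 counts, is limited by depth.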
